A study of Sus scrofa with 14 samples.

Results

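Of the 19588 porcine genes in the expression table, 2 were on in all 3 groups of induced pluripotent stem cells (piPSC) and off in all 4 groups of embryo-derived cells. These were PCOLCE2 (ENSSSCG00000011683) and CCN4 (ENSSSCG00000005946). A gene was counted as on where the mean of the 2 samples was at least 40 normalized read counts in each induced group, and as off where it was below 15 in each embryo-derived group; a normalized count is the number of reads divided by a size factor for the sample. Each part of the rule was met by many genes, the first by 10390 and the second by 4365. The 2 genes were thus chosen by these values, so their difference between induced and embryo-derived cells is given as a description, with no test.

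PCOLCE2, procollagen C-endopeptidase enhancer 2, is a secreted glycoprotein that binds procollagens and helps the BMP1 family of proteinases to remove their C-terminal propeptide, the step that lets fibrillar collagen assemble. CCN4, first named WISP1, is a secreted matricellular protein of the CCN family and was found as a gene induced by WNT1. Both proteins act outside the cell, and both are known from connective tissue.

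RNA from 14 samples of porcine cells grown on irradiated mouse feeder cells was sequenced, 2 samples in each of 7 groups. The embryo-derived cells were outgrowths of the blastocyst inner cell mass in an FGF2 medium with serum, termed F (pESCLC-primary), embryonic stem cell-like lines kept in F (pESCLC-F, lines A1 and A2, both at passage 2), a line moved to FL6i at day 8 (pESCLC-FL6i, line C2 at passages 3 and 9), and a line taken from FL6i into FLB2i at day 18 (pESCLC-FLB2i, line B1 at passages 3 and 6). The induced cells were a lentivirally reprogrammed line in another FGF2 medium, with serum replacement and also termed F (Lv-piPSC-F, the second sample at passage 46 and with a different code from the first) and lines made from fetal fibroblasts with episomal plasmids that carried human reprogramming factors and a short hairpin RNA against p53, in FLB2i (Epi-piPSC-FLB2i, line B5 at passages 9 and 12) or in FL6i (Epi-piPSC-FL6i, lines C10, passage 12, and C11, passage 11). FLB2i holds FGF2, LIF, BMP4 and inhibitors of GSK3A and TGFB1; FL6i holds FGF2, LIF and inhibitors of 6 targets, which are BMP, GSK3A, MAP2K1, TGFB1, MAPK8 and MAPK14.

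By their labels the duplicates of lines B1, C2 and B5 were passages of 1 line each, so their spread need not cover differences between lines. The samples labelled C2 went against this in Y-linked RNA: at passage 3 EIF1AY read 7.34 and KDM5D 0 normalized counts, and at passage 9 they read 86.5 and 26.2. The number of genes meeting the rule was 0 without the first of these samples and 2 without the second, and folds against this group are given with and without each. Among the induced groups each medium came with its own line and, for Lv-piPSC-F, its own way of reprogramming, and these cannot be told apart. The fibroblasts from which the lines were made are not analysed here. Between 6193659 (the second pESCLC-FL6i sample) and 58878377 reads (the second Lv-piPSC-F sample) were assigned to genes. In the second pESCLC-FL6i sample 1 read made 2.62 normalized counts, against 0.348 in the second Lv-piPSC-F sample, so a low value is least precise in the former.

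Markers of pluripotency varied among the induced cells. In the comparisons described below, 20 pluripotency genes were tested. In Epi-piPSC-FL6i against Epi-piPSC-FLB2i, 9 were called higher and 2, NANOG among them, lower (all genes, 7.14% and 9.55%). In Epi-piPSC-FL6i against Lv-piPSC-F, 3 were higher and 7 lower (7.98% and 7.21%). In Epi-piPSC-FLB2i against Lv-piPSC-F, 0 were higher and 13 lower (13.8% and 11.3%). LIN28A, an RNA-binding protein of pluripotent cells whose human counterpart was also on the episomal plasmids, had mean normalized counts of 7910 in Lv-piPSC-F, 2075 in Epi-piPSC-FLB2i and 10748 in Epi-piPSC-FL6i, but 5249 in pESCLC-primary and 11.5 in pESCLC-FL6i. The annotated NANOG gene had 632 in Lv-piPSC-F, 31.4 in Epi-piPSC-FLB2i and 0.982 in Epi-piPSC-FL6i, a single read in each sample of the last group. Reads that it shares with near-identical copies could be lost in counting. By qPCR with porcine primers, the study reported the opposite direction, with more NANOG transcript in its FL6i lines than in its FLB2i lines.

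PCOLCE2 lies on chromosome 13 from 83507607 to 83592929 on the minus strand (Sscrofa11.1), with 1 annotated transcript of 9 exons. CCN4, listed by RefSeq as WISP1, lies on chromosome 4 from 8078163 to 8110906 on the minus strand, with 2 annotated transcripts of 5 and 6 exons. None of the nearest protein-coding genes overlapped either of them, and genes of other types were not examined. The 250 bases before each annotated start site are printed 5′ to 3′ on the strand of the gene, from RefSeq's assembly, because the 2 genes share the on and off pattern; capitals mark matches to the motifs searched. The PCOLCE2 stretch is chr13:83592930-83593179 and the CCN4 stretch is chr4:8110907-8111156.
PCOLCE2: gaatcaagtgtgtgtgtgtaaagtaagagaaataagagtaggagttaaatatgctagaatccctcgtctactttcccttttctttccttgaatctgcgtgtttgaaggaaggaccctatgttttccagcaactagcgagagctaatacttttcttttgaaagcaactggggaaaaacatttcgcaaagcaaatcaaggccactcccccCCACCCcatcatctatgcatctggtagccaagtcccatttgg
CCN4: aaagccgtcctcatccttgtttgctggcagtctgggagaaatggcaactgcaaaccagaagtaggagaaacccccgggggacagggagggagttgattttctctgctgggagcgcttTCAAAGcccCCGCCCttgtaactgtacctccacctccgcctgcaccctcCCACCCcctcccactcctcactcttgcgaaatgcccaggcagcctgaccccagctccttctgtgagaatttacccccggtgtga

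The motif that both upstream stretches held was the CACCC box (CCACCC), which is found in 34.4% of the 19556 annotated promoters when 250 bases before and 50 after the start site are searched on both strands. In PCOLCE2 it was the only match. CCN4 also held a GC box (GGGCGG, in 50.6% of promoters) and a TCF motif (CTTTGA, in 12.3%), both on the reverse strand. Neither window held the octamer (ATGCAAAT), the SOX motif (ACAAAG), the E-box (CACGTG), the TATA box (TATAAA), the CCAAT box (CCAAT), the E2F motif (TTCCCGCC) or the cAMP response element (TGACGTCA). Both windows held fewer CpG sites than the median promoter, with 5 in PCOLCE2 and 8 in CCN4 against a median of 16. Their GC content was 46.3% and 57.0%, against a median of 58.7%. A match is a run of letters and says nothing of binding.

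PCOLCE2 was strongest in the lentiviral line. The Lv-piPSC-F samples read 1260 and 1336 normalized counts (1145 and 3838 reads), the Epi-piPSC-FL6i samples 201 and 319 (208 and 319 reads) and the Epi-piPSC-FLB2i samples 69.3 and 82.1 (67 and 89 reads). Among embryo-derived cells, pESCLC-primary read 1.97 and 1.09, pESCLC-F 2.09 and 2.02, pESCLC-FLB2i 5.39 and 6.90, and pESCLC-FL6i 3.15 and 23.6. Hence the lowest induced sample, at 69.3, was 2.94-fold above the highest embryo-derived sample, the passage 9 sample of pESCLC-FL6i. That sample rested on 9 reads, with an exact Poisson 95% interval of 10.8 to 44.8 normalized counts that covers counting error only, and all other embryo-derived samples had 7 or fewer reads.

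CCN4 was lower and spanned a narrower range in induced cells. The Lv-piPSC-F samples read 113 and 68.6 normalized counts (103 and 197 reads), the Epi-piPSC-FLB2i samples 62.1 and 61.8 (60 and 67 reads) and the Epi-piPSC-FL6i samples 41.5 and 53.9 (43 and 54 reads). Among embryo-derived cells, pESCLC-primary read 6.89 and 2.19, pESCLC-F 1.05 and 3.03, pESCLC-FLB2i 3.08 and 21.7, and pESCLC-FL6i 0 and 15.7. The later passage was thus the higher one in both inhibitor-medium lines, with 22 reads against 4 in pESCLC-FLB2i and 6 against 0 in pESCLC-FL6i. The lowest induced sample, at 41.5, was 1.92-fold above the highest embryo-derived sample. For the sample with 0 reads, the floor of 3 reads used for folds is 3.15 normalized counts, and the two-sided exact Poisson 95% interval reaches 3.87.

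**Figure D1:**
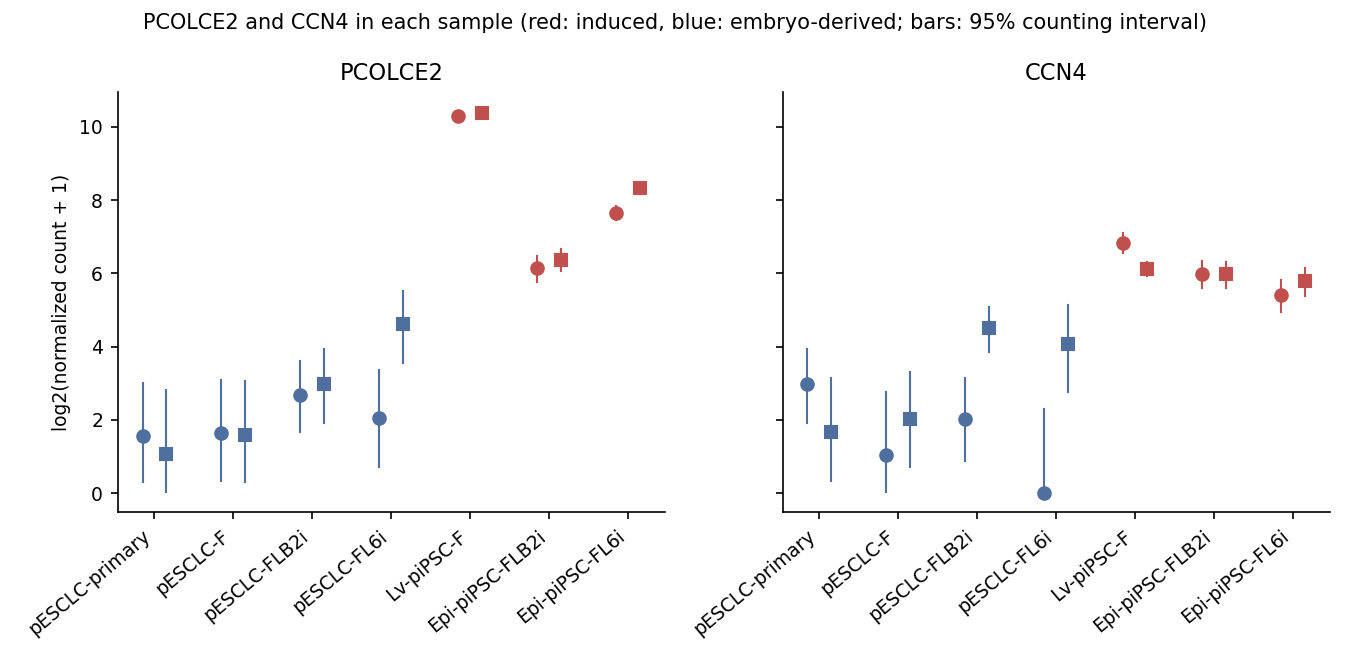
Levels of PCOLCE2 (left) and CCN4 (right) as log2(normalized count + 1), with 1 point a sample (circle, first; square, second) for 4 embryo-derived groups (blue) and 3 induced groups (red), and bars for the exact Poisson 95% interval. PCOLCE2 spans 69.3 to 1336 among the induced samples and CCN4 41.5 to 113, and in both panels the highest blue points are second samples of pESCLC-FLB2i or pESCLC-FL6i.

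All 6 induced samples exceeded all 8 embryo-derived samples for both genes, which the rule does not demand but favors; of 16028 genes that reached 10 normalized counts in 2 or more samples, 452 (2.82%) did the same. By the gap between the lowest induced and the highest embryo-derived sample, PCOLCE2 stood in place 8 and CCN4 in place 24 of these genes. Folds were then taken between groups whose labels name the same medium. PCOLCE2 was 420-fold higher in Lv-piPSC-F than in pESCLC-F, taking the floor of 3 reads in each sample of the latter. The counting interval of this ratio began at 172 with the first pESCLC-F sample alone and at 178 with the second alone. PCOLCE2 was 12.3-fold higher in Epi-piPSC-FLB2i than in pESCLC-FLB2i, and 19.4-fold higher in Epi-piPSC-FL6i than in pESCLC-FL6i. CCN4 was 29.5-fold higher in the first of these pairs, by the same floor. Its counting interval began at 15.6 with the first pESCLC-F sample alone and at 10.3 with the second alone. The ratios of CCN4 means in the other pairs were 5.0 and 6.07. Single embryo-derived samples carried several of these values. For CCN4 in FLB2i the ratio was 2.86 without the first pESCLC-FLB2i sample and 20.1 without the second, which leaves 4 reads (counting interval 7.86 to 73.9). For CCN4 in FL6i it was 3.04 without the first pESCLC-FL6i sample. Without the second, which leaves 0 reads, it was 15.2 by the floor of 3 reads and at least 12.3 by the counting interval. For PCOLCE2 in FL6i it was 11 without the first and 82.5 without the second, which leaves 3 reads (counting interval 28.2 to 400.3). Leaving out any other sample of these pairs moved no value by more than 1.5 times. The F medium of the lentiviral line held serum replacement and that of the embryo-derived cells fetal bovine serum, so the first pair also differed in medium. In these bulk samples, a smaller share of cells with the RNA and less RNA in each cell cannot be told apart. Marker sums of other cell types also differed across these pairs, and their part was not tested. Trophectoderm sums were 495351 and 479424 in pESCLC-F against 94120 and 79968 in Lv-piPSC-F. They were 1496 and 1353 in pESCLC-FLB2i against 14703 and 9164 in Epi-piPSC-FLB2i. Endoderm sums were 256097 and 221295 in pESCLC-F against 2501 and 3260 in Lv-piPSC-F. Over all samples, KRT8 alone gave 65.6% of the trophectoderm sums and APOA1 alone 70.6% of the endoderm sums. Neuroectoderm sums were 74960 to 83692 in pESCLC-FLB2i and pESCLC-FL6i against 27836 to 37143 in the episomal groups.

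The order of the group means differed between the genes. For PCOLCE2 it ran, in mean ± SD of normalized counts (n = 2), from Lv-piPSC-F (1298 ± 54.0) through Epi-piPSC-FL6i (260 ± 83.3), Epi-piPSC-FLB2i (75.7 ± 9.0), pESCLC-FL6i (13.4 ± 14.4), pESCLC-FLB2i (6.14 ± 1.07) and pESCLC-F (2.06 ± 0.0498) to pESCLC-primary (1.53 ± 0.618). The samples of pESCLC-FL6i spanned those of pESCLC-FLB2i, and pESCLC-F and pESCLC-primary had at most 2 reads a sample, so that neither pair could be ordered at this depth. For CCN4 the order was Lv-piPSC-F (91.0 ± 31.6), Epi-piPSC-FLB2i (61.9 ± 0.219), Epi-piPSC-FL6i (47.7 ± 8.79), pESCLC-FLB2i (12.4 ± 13.2), pESCLC-FL6i (7.86 ± 11), pESCLC-primary (4.54 ± 3.32) and pESCLC-F (2.04 ± 1.41). Each embryo-derived group overlapped its neighbour in this order. By its mean, Epi-piPSC-FLB2i thus stood below Epi-piPSC-FL6i for PCOLCE2 and above it for CCN4. For CCN4 the difference was not called in limma (log2 fold change -0.38, 95% interval -1.36 to 0.60).

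Set against gene length, the 2 genes differed most in Lv-piPSC-F. The mean level per kilobase of annotated exon was 604 normalized counts for PCOLCE2 and 21.3 for CCN4 in Lv-piPSC-F. Epi-piPSC-FLB2i had 35.2 and 14.5, and Epi-piPSC-FL6i had 121 and 11.2. In pESCLC-F both were below 1, at 0.957 for PCOLCE2 and 0.477 for CCN4.

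Both genes lay close to the limits that chose them. The highest embryo-derived group mean was 13.4 for PCOLCE2 and 12.4 for CCN4, just inside the limit of 15, and the lowest induced group mean of CCN4 was 47.7. Just outside the limit were ADGRG2, an adhesion G protein-coupled receptor (highest embryo-derived mean 19.9), MYO1A, a brush border myosin (21.0), and B3GNT9, a glycosyltransferase (24.2). Just below the minimum of 40 were ENSSSCG00000004098 (lowest induced mean 33.5), BCAS1 (31.2) and ENSSSCG00000006409 (29.2). BCAS1 was at 1389 in Epi-piPSC-FL6i and 425 in Epi-piPSC-FLB2i and missed the rule through Lv-piPSC-F alone. No gene met the rule when every sample, not the group mean, had to pass, since CCN4 had 2 embryo-derived samples over the limit, at 21.7 and 15.7, and PCOLCE2 had 1, at 23.6.

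**Figure D2:**
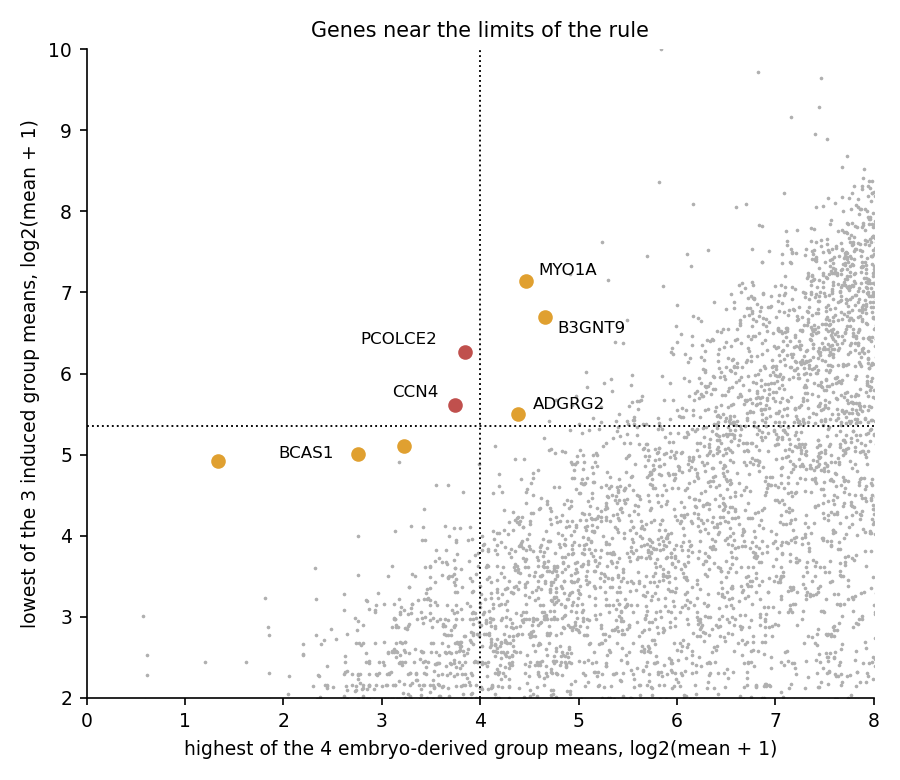
Lowest induced group mean against highest embryo-derived group mean for genes inside the plotted window, both as log2(mean normalized count + 1), with the 2 genes that met the rule in red, the nearest 6 that did not in orange, others in grey, and dotted lines at 40 and 15. PCOLCE2 and CCN4 are alone in the upper left field and both sit close to the vertical line, at means of 13.4 and 12.4.

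The induced groups were then compared with each other, a contrast that the rule did not set, to ask whether the level differed between media and lines. The call in limma required an at least 3-fold change with an adjusted p no higher than 0.05 over 14780 genes, on log2(normalized count + 1), which understates the change of low genes. PCOLCE2 was called in all 3 comparisons. It was 17.0-fold lower in Epi-piPSC-FLB2i than in Lv-piPSC-F (log2 fold change -4.09, 95% interval -4.75 to -3.42, limma adjusted p = 0.000332), where 25.1% of the genes were called and 11.3% were called lower. It was 5.11-fold lower in Epi-piPSC-FL6i than in Lv-piPSC-F (-2.35, interval -3.02 to -1.69, limma adjusted p = 0.00266), where 15.2% were called and 7.21% were called lower and 7.98% higher. Between the episomal lines it was 3.32-fold higher in Epi-piPSC-FL6i than in Epi-piPSC-FLB2i (1.73, interval 1.07 to 2.39, limma adjusted p = 0.00528), where 16.7% were called and 7.14% were called higher and 9.55% lower.

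The last of these calls was the least secure. It was lost in limma without the second Epi-piPSC-FL6i sample, at a log2 fold change of 1.40 (adjusted p = 0.0434, fold change below 3), and with all 14 samples in the fit (adjusted p = 0.116).

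CCN4 was not called in any of the 3 comparisons. Its log2 fold change was -0.38 in Epi-piPSC-FL6i against Epi-piPSC-FLB2i (95% interval -1.36 to 0.60, limma adjusted p = 0.496), -0.88 in Epi-piPSC-FL6i against Lv-piPSC-F (-1.87 to 0.10, limma adjusted p = 0.135) and -0.50 in Epi-piPSC-FLB2i against Lv-piPSC-F (-1.49 to 0.48, limma adjusted p = 0.324). Each interval still holds a difference of more than 2-fold, so the levels of CCN4 were not shown to be alike. The PCOLCE2 and CCN4 differences were not tested against each other.

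**Figure D3:**
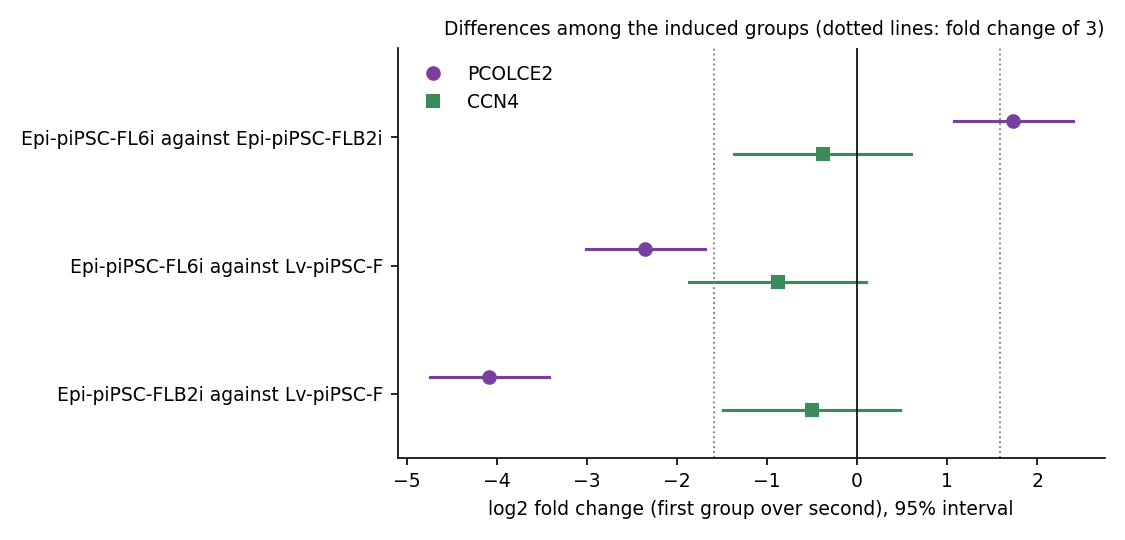
Log2 fold changes among the 3 induced groups from limma on log2(normalized count + 1), with 95% intervals, for PCOLCE2 (circles) and CCN4 (squares); the dotted lines mark a fold change of 3 in each direction. PCOLCE2 lies past a dotted line in each comparison, at 1.73, -2.35 and -4.09, whereas every CCN4 interval includes 0.

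CCN4 was read beside the rest of its family. The CCN family, a list added once CCN4 was known, encodes secreted regulators of adhesion and matrix, and the genes other than CCN4, which the rule chose, all overlapped between induced and embryo-derived samples, as most genes did (2.82% lay above). CCN2, connective tissue growth factor, was far more abundant, with means of 1284 in pESCLC-primary, 2220 in pESCLC-F, 2402 in Epi-piPSC-FLB2i and 2521 in Lv-piPSC-F, but 262 in Epi-piPSC-FL6i. CCN1 had 944 in Lv-piPSC-F, 1559 in Epi-piPSC-FLB2i and 81.1 in Epi-piPSC-FL6i. It was also low, at 34.6 and 92.6, for pESCLC-FLB2i. The pESCLC-FL6i samples were far apart in CCN1, with 53.5 in the first and 1313 in the second. Low CCN1 was thus not particular to Epi-piPSC-FL6i. Both CCN1 and CCN2 fell in Epi-piPSC-FL6i against Epi-piPSC-FLB2i. The log2 fold change was -4.16 for CCN1 (limma adjusted p = 0.00133) and -3.14 for CCN2 (limma adjusted p = 0.00192). CCN3 rose in the same comparison (log2 fold change 3.04, limma adjusted p = 0.0101), from 1.96 to 23.5 normalized counts. CCN6 read 138 in the first Lv-piPSC-F sample and at most 10.5 in the other samples of all groups.

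PCOLCE2 was likewise read beside the other genes that process procollagen, a list of 8 added in the same way. PCOLCE, its close relative and the better known enhancer, was on in every group, with means of 451 in pESCLC-primary, 541 in pESCLC-F, 184 in Lv-piPSC-F, 383 in Epi-piPSC-FLB2i and 56.9 in Epi-piPSC-FL6i. The 2 enhancers moved in opposite directions between the episomal lines: PCOLCE fell by 2.73 in Epi-piPSC-FL6i (limma adjusted p = 0.00126) where PCOLCE2 rose by 1.73 on the log2 scale. Against Lv-piPSC-F, both were lower in Epi-piPSC-FL6i, PCOLCE by a log2 fold change of -1.66 (limma adjusted p = 0.00551).

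The proteinases that the enhancers serve had their own patterns. BMP1 was not called in any of the 3 comparisons and had means between 469 in Lv-piPSC-F and 2315 in pESCLC-FL6i. TLL2, a relative of BMP1, rose with PCOLCE2 in Epi-piPSC-FL6i against Epi-piPSC-FLB2i, by a log2 fold change of 4.17 (limma adjusted p = 0.000618), from 36.7 to 670 normalized counts. TLL1 was lower in both episomal groups than in Lv-piPSC-F, where its mean was 88.7. ADAMTS2 and ADAMTS14, which remove the N-terminal propeptide, rose in Epi-piPSC-FL6i against Epi-piPSC-FLB2i, to 155 and 298. ADAMTS3, which acts on the same propeptide, fell from 133 to 6.89 (log2 fold change -4.06, limma adjusted p = 0.010). Of the 8 genes, 4 rose, PCOLCE2 among them, and 2 fell between the episomal lines, where 7.14% of all genes tested were called higher and 9.55% lower, with a median log2 fold change of 1.32 against -0.02 over all genes. Against Lv-piPSC-F, 2 rose and 3 fell in Epi-piPSC-FL6i (all genes, 7.98% and 7.21%), with a median of -0.47. In Epi-piPSC-FLB2i, 1 rose and 3 fell (13.8% and 11.3%), with a median of -0.23. PCOLCE2 was among those that fell in both.

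**Figure D4:**
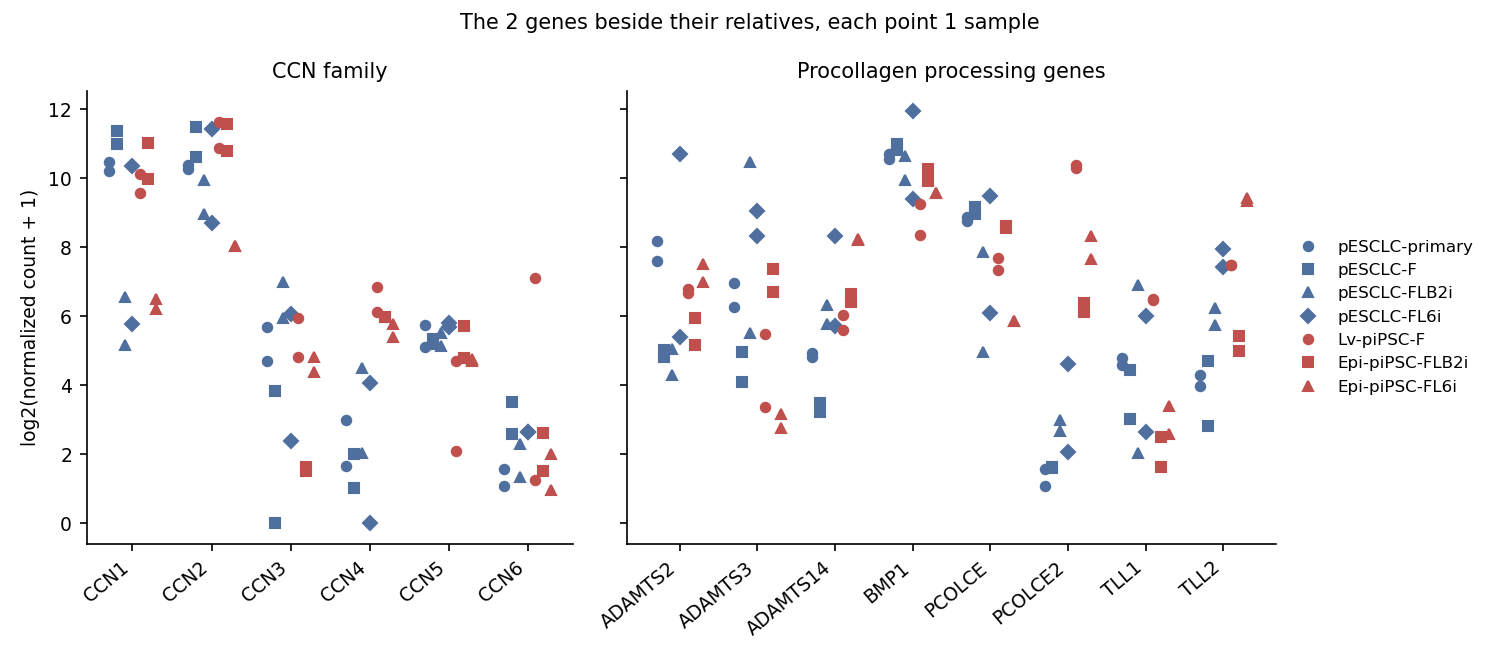
Levels of the 6 CCN family genes (left) and of 8 procollagen processing genes (right) as log2(normalized count + 1), with 1 point a sample, embryo-derived groups in blue and induced groups in red. Red and blue points are mixed for the other genes, while all red points of CCN4 (41.5 and above) and PCOLCE2 (69.3 and above) lie over the blue ones.

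The collagens themselves, which are the substrates of these enzymes, did not run in the order of PCOLCE2. COL1A1 gave 36.2% of the summed counts of 11 fibrillar collagen genes over all samples, a share raised by the second pESCLC-FL6i sample (155568 of 303654). In the first Lv-piPSC-F sample COL1A1 gave 46.2 of 1890. The summed normalized counts of Lv-piPSC-F were 1890 and 29734, those of Epi-piPSC-FLB2i 38568 and 31824, and those of Epi-piPSC-FL6i 13782 and 17121. The sums of pESCLC-primary were 27244 and 21212, those of pESCLC-F 6422 and 10993, those of pESCLC-FLB2i 9055 and 62890, and those of pESCLC-FL6i 4986 and 303654. The Lv-piPSC-F samples were thus alike in PCOLCE2 and far apart in collagen. Between Epi-piPSC-FL6i and Epi-piPSC-FLB2i, 7 of the 11 genes fell and none rose, beside 9.55% of all genes called lower. COL5A3 fell by 6.79 (limma adjusted p = 0.00109) and COL11A1 fell by 1.99 (limma adjusted p = 0.00106) on the log2 scale. Against Lv-piPSC-F, 6 rose and none fell in Epi-piPSC-FLB2i (13.8% of all genes higher), and 2 fell and none rose in Epi-piPSC-FL6i (7.21% lower).

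Among the embryo-derived samples, those with the most collagen also had the highest CCN4. The second pESCLC-FL6i sample (collagen sum 303654) had CCN4 at 15.7 and PCOLCE2 at 23.6, and the second pESCLC-FLB2i sample (62890) had CCN4 at 21.7 and PCOLCE2 at 6.90. The second pESCLC-FL6i sample also differed from its duplicate in Y-linked RNA, as given above. The part of other cells in these values was not tested. With both samples left out, a choice made after seeing the data, the rule gave 5 genes, PCOLCE2 and CCN4 among them.

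**Figure D5:**
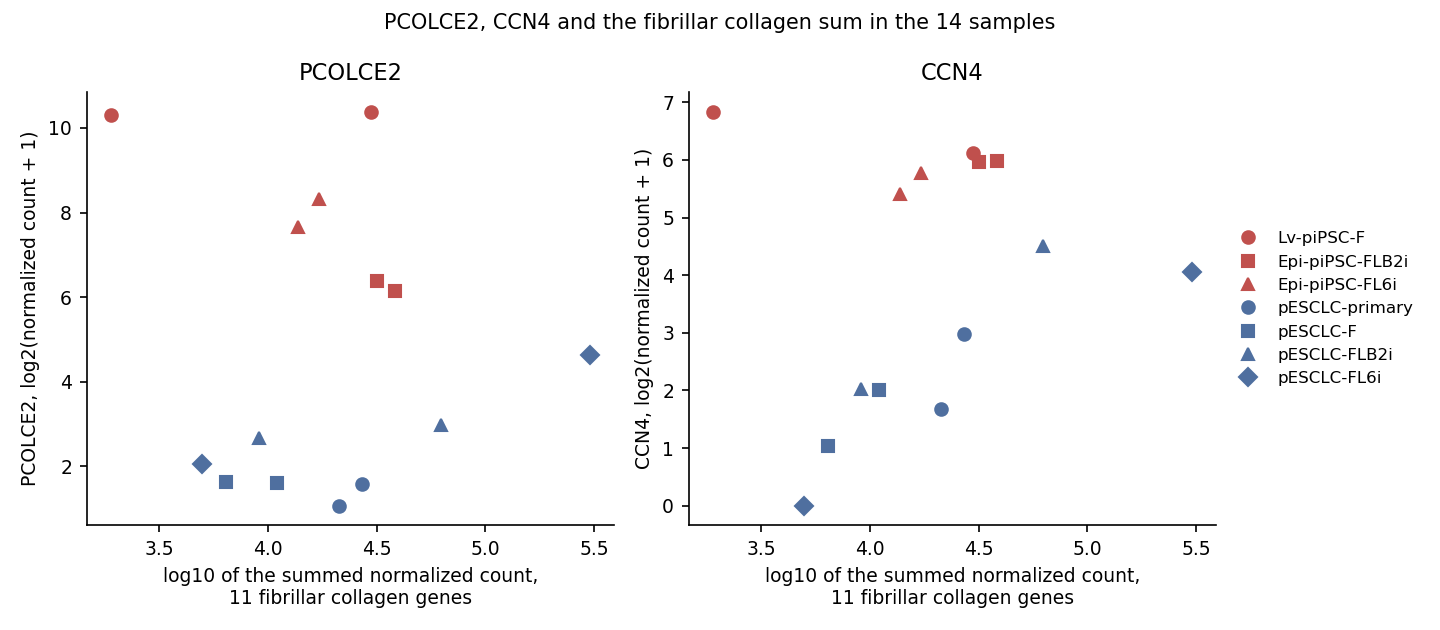
PCOLCE2 (left) and CCN4 (right), as log2(normalized count + 1), against the log10 of the summed normalized counts of 11 fibrillar collagen genes, with 1 point for each of the 14 samples and a marker for each group. Induced samples (red) lie above embryo-derived samples (blue) over collagen sums from 1890 to 38568, and the rightmost blue points are the second samples of pESCLC-FLB2i and pESCLC-FL6i.

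Fibroblast markers were read as a measure of other or starting cells, whose part in the results was not tested. The summed normalized count of 23 measured fibroblast genes of a list of 25 ran from 34278 to 106010 in the induced samples and from 48904 to 469529 in the embryo-derived ones. FN1, fibronectin, made up 57.1% of the sum over all samples and was highest in pESCLC-F. None of the 23 genes had all induced samples above, or all below, the embryo-derived ones, where 2.82% and 2.98% of all genes did, so that 0 of 23 is near the background. PDGFRA, a receptor of mesenchymal cells, had means of 31.8 in Lv-piPSC-F, 46.7 in Epi-piPSC-FL6i and 998 in Epi-piPSC-FLB2i. DCN, decorin, had 26.3, 62.6 and 5.64 in the same groups. TAGLN, an actin-binding protein of contractile cells, had 6218, 369 and 6047. S100A4 had 169, 123 and 28.8, and was higher in pESCLC-FLB2i (385) and pESCLC-FL6i (250). Of the 23 genes tested, 8 were called higher and 1 lower in Epi-piPSC-FLB2i than in Lv-piPSC-F (all genes, 13.8% and 11.3%). In Epi-piPSC-FL6i, 4 were higher and 1 lower than in Lv-piPSC-F (7.98% and 7.21%). Against Epi-piPSC-FLB2i, 1 was higher and 6 lower in Epi-piPSC-FL6i (7.14% and 9.55%). The Lv-piPSC-F samples, in which PCOLCE2 was highest, had fibroblast sums of 34278 and 66279, the former the lowest of all 14 samples. That rank rests on FN1, which gave 1610 of this lowest sum but 441781 of 469529 in the first pESCLC-F sample.

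CCN4 belongs to the WNT field, and the WNT list was read beside it. Of 35 genes in that list 33 were measured, and CCN4 is not among them. Of the 31 tested, 17 were higher and 4 lower in Epi-piPSC-FLB2i than in Lv-piPSC-F, where 13.8% of all genes were called higher and 11.3% lower. AXIN2, a feedback inhibitor and common WNT target, rose by 3.37 (limma adjusted p = 0.00106) and LEF1, a WNT transcription factor, by 6.08 (limma adjusted p = 0.000404) on the log2 scale, while CCN4 read -0.50 and was not called. In Epi-piPSC-FL6i against Epi-piPSC-FLB2i, 2 rose and 11 fell (all genes, 7.14% and 9.55%), AXIN2 by 1.77 (limma adjusted p = 0.0136) and LEF1 by 5.50 (limma adjusted p = 0.00109). In Epi-piPSC-FL6i against Lv-piPSC-F, 8 rose and 3 fell (all genes, 7.98% and 7.21%). Among the embryo-derived groups AXIN2 had means of 2754 in pESCLC-FLB2i, 1786 in pESCLC-FL6i, 502 in pESCLC-primary and 82.3 in pESCLC-F, which is also the order of CCN4 there, although neighbouring groups overlapped in CCN4. Within both inhibitor lines the genes ran opposite ways, AXIN2 from 3007 to 2502 between the first and the second pESCLC-FLB2i sample and from 2420 to 1153 in pESCLC-FL6i, where CCN4 was higher in the second. LEF1 had another order, with means of 201 in pESCLC-primary, 92.2 and 80.8 in the FLB2i and FL6i lines, and 8.14 in pESCLC-F.

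KLF4 and LIN28, whose human sequences the episomal plasmids carried, and MYC, which they did not carry (they held L-MYC), were read beside the 2 genes. Of 7 reprogramming factors listed, 4 were measured, and no values are given here for POU5F1 and SOX2. Per the study, human KLF4 was also used to reprogram the lentiviral line. Whether reads from human transgenes were counted on the porcine genes was not tested. LIN28A ran highest in Epi-piPSC-FL6i and lowest in Epi-piPSC-FLB2i among the induced groups, at the means given above. KLF4 had means of 245 in Lv-piPSC-F, 148 in Epi-piPSC-FLB2i and 1411 in Epi-piPSC-FL6i. MYC had 1200, 33.4 and 334. KLF4 thus ran in another order than PCOLCE2 and CCN4, while MYC ran in the order of PCOLCE2 by its means. The second Lv-piPSC-F sample (2195) set that order, as the first (205) lay below both Epi-piPSC-FL6i samples (287 and 382). In pESCLC-FL6i, KLF4 was 21.0 in the first sample and 1653 in the second, the sample in which PCOLCE2 was 23.6.

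The genes most like each of the 2 were sought by Pearson's r of log2(normalized count + 1) over the 14 samples, a measure chosen after the values were seen. The induced and embryo-derived groups share this difference by the rule, so r is a description. ADGRG2 (0.963) and NEXN (0.957), an actin-binding protein, were closest to PCOLCE2. ADGRG2 had means of 2943 in Lv-piPSC-F, 560 in Epi-piPSC-FL6i and 44.4 in Epi-piPSC-FLB2i, and NEXN 3957, 838 and 196, the same order as PCOLCE2. KCNK1 (0.920), a potassium channel, SLC16A7 (0.917), a monocarboxylate transporter, and CD44 (0.904), a hyaluronan receptor, were among the 4 genes closest to CCN4. PCOLCE2 was in place 9 for CCN4, with r of 0.879.

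The genes next to PCOLCE2 and CCN4 on their chromosomes were read in the same way, except PAQR9 beside PCOLCE2, for which no value was matched. NDRG1, 8828 bases from CCN4, ran from 66.5 to 417 in the induced samples and from 216 to 4430 in the embryo-derived ones. ST3GAL1, a sialyltransferase 167110 bases from CCN4, was lower in all induced samples (13.2 to 188) than in the embryo-derived ones (261 to 4191), as were 477 of the 16028 genes (2.98%). TRPC1, a cation channel 9188 bases from PCOLCE2, ran from 146 to 513 and from 167 to 766. U2SURP, a splicing factor 111572 bases from PCOLCE2, was higher in all induced samples (3795 to 5940) than in the embryo-derived ones (2044 to 3440), as were 452 of the 16028 genes (2.82%). ZFAT, TG, SLA and PHF20L1 near CCN4, and ATR, PLS1 and CHST2 near PCOLCE2, overlapped between induced and embryo-derived samples.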

How the data were processed

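RNA was sequenced from 14 samples in 7 groups of 2, taken from the sample labels. Per the labels and the study's methods, libraries came from a stranded kit, and the authors aligned paired-end reads to Sscrofa11.1 with TopHat2 2.1.0, counted them on genes with HTSeq at default settings and normalized with DESeq2. The deposited signal is therefore a normalized count per gene, 1 size factor a sample, with no pooling. The strand setting is not stated further and could not be checked; a setting opposite to that of the kit would have counted reads of the other strand. A step to separate reads of mouse feeder cells is not given in the sources used here. Dividing each column by its step gave whole reads for 100% of the values (tolerance 0.01 reads). Symbols were matched for 14151 of 19588 identifiers.

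The members and lists were chosen with earlier results of these data known. The named genes were both members, the 3 nearest genes outside each threshold and the reprogramming factors; relatives, collagens, neighbours, like genes and other examples were added after seeing values. The induced groups were compared with limma 3.58.1 (R 4.3.3), with a trend in the prior variance, in 1 fit over 6 samples on log2(normalized count + 1), for genes that reached 10 normalized counts in 2 or more samples, with Benjamini-Hochberg adjustment. The script was tested on simulated data. p-values measure the spread between duplicates only. Duplicates differed by more than sampling noise (chi-square per gene 8.69 to 226). The settings varied were the pseudocount (0.1 and 5), the filter (all genes above 0, or a minimum of 50), other call rules, all 14 samples or only the 4 compared in the fit, size factors from the 6 samples, a replicate block, each sample left out (for folds, a choice made after seeing the data), and DESeq2 1.42.0 and edgeR 4.0.16 on the recovered reads. DESeq2 called 2464, 2468 and 3753 genes and edgeR 2371, 2231 and 3666, against 2467, 2245 and 3706 in limma, for Epi-piPSC-FL6i against Epi-piPSC-FLB2i, Epi-piPSC-FL6i against Lv-piPSC-F and Epi-piPSC-FLB2i against Lv-piPSC-F.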

Additional observations from a re-analysis of the deposited data

How the results depend on the processing

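The number of genes that met the rule depended on its limits. It was 4 with a minimum of 30 (BCAS1 and ENSSSCG00000004098 added), 0 with a minimum of 80, 0 with a limit of 10, 9 with a limit of 30, 0 with each sample in place of the group mean, and 1 (CCN4) with counts rescaled to library totals. Leaving out 1 sample at a time gave 0 to 3 genes. It gave 0 without pESCLC-FL6i replicate 1, when the shallow second sample stood alone, and 1 (PCOLCE2) without pESCLC-FLB2i replicate 1. It was 5 without the second samples of both groups, a choice made after seeing the data. The 3 genes added to PCOLCE2 and CCN4 were then ADORA1, B3GNT9 and RERG.

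In the order Epi-piPSC-FL6i against Epi-piPSC-FLB2i, Epi-piPSC-FL6i against Lv-piPSC-F and Epi-piPSC-FLB2i against Lv-piPSC-F, limma called 1071, 918 and 1528 genes when a log2 fold change of 3 or more in size was required, and 5858, 5255 and 7881 by adjusted p alone. Leaving out 1 sample gave 1270 to 1591, 1061 to 3300 and 2567 to 4501; a group left with 1 sample was assumed to vary like the others. Over 16 alternatives each, CCN4 stayed uncalled in all 3 comparisons, although without Lv-piPSC-F replicate 2 its log2 fold change in Epi-piPSC-FL6i against Lv-piPSC-F was -1.24 (limma adjusted p = 0.0228). PCOLCE2 kept its call in 13, 15 and 16 of them, and its other losses were at the log2 threshold of 3. The numbers of the replicates did not pair the samples (correlations of same-numbered deviations -0.02, 0.07 and -0.06). With the replicate block limma called 2368, 2155 and 3661 genes and no call of PCOLCE2 or CCN4 changed. Depth limits the embryo-derived values of both genes, most of which rest on 7 reads or fewer.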

Other observations

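Several genes separated the induced from the embryo-derived samples about as widely as PCOLCE2 (2.94-fold) and CCN4 (1.92-fold) or more so, although their embryo-derived levels kept them outside the rule. KCNJ3, a subunit of an inwardly rectifying potassium channel, had the widest gap among 16028 genes, with 878 normalized counts in the lowest induced sample and 57.7 in the highest embryo-derived one; its means were 2927 in Lv-piPSC-F, 1029 in Epi-piPSC-FLB2i and 1862 in Epi-piPSC-FL6i. EMILIN2, an extracellular matrix glycoprotein, had 785 against 170, and NEXN 178 against 40.3. GUCY2C, a receptor guanylate cyclase best known in the intestine, had 548 against 187. TDRD12, a protein of the piRNA pathway of germ cells, had 721 against 276. MSH4, a meiotic recombination protein, had a narrower gap than either, with 1006 against 828. TDRD12 and MSH4 were the genes among the 44 measured germ cell genes with all induced samples higher, where 2.82% of all genes were.

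In the opposite direction, 477 of the 16028 genes (2.98%) had all induced samples below all embryo-derived samples. Of 38 measured genes of the TGFB and BMP list, 4 did so. ID2, a target of BMP signaling, ran from 99.9 to 583 in the induced samples and from 1362 to 3448 in the embryo-derived ones. BMPR1B, a BMP receptor, ran from 115 to 312 and from 715 to 1368, and SMAD1 and SKIL were the others. The Y-linked gene EIF1AY had means of 694 in Lv-piPSC-F, 563 in Epi-piPSC-FL6i and 8.98 in Epi-piPSC-FLB2i, so both comparisons with Epi-piPSC-FLB2i also set lines with high and low EIF1AY against each other. Among the embryo-derived cells, EIF1AY read 270 and 8.74 in the pESCLC-primary samples and 7.34 and 86.5 in the pESCLC-FL6i samples. The sample at 86.5 held the highest embryo-derived PCOLCE2 value, whereas PCOLCE2 was 1.97 in the sample at 270.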
